A study of Rattus norvegicus with 2 samples.

Results

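The 10 circadian clock genes Nr1d1, Nr1d2, Per1, Per2, Per3, Dbp, Tef, Bmal1, Clock and Npas2 were followed in the rat urinary bladder. They were chosen by name from the 22093 genes that the array represents by a single gene symbol. All 10 were found, each with 1 transcript cluster, which is a group of probes that covers a whole transcript. The RNA came from male F344 rats that drank water with 200 ppm dimethylarsinic acid (DMA), a methylated arsenic compound, over 4 weeks, and from male F344 control rats whose water held 0 ppm over the same time. RNA of 7 rats was pooled for each group and each pool was put on 1 array, so 2 arrays stand for 14 rats. Per the labels the rats were 6 weeks old at the start and 10 weeks old at sampling, whereas the study's methods give a higher starting age. The labels give the tissue as bladder, and the methods describe epithelial cells swirled off the inverted bladder. The hour of day at which the bladders were taken was not given in the sources used here.

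The circadian clock is a feedback loop that runs in nearly every cell. The proteins CLOCK or NPAS2 pair with BMAL1 and switch on genes that carry an E-box, among them the period genes, the nuclear receptor genes Nr1d1 and Nr1d2, and the output factors Dbp and Tef. The period proteins, with cryptochromes, then hold back CLOCK and BMAL1, while NR1D1 and NR1D2 repress Bmal1 and Npas2 at sites called ROREs. In peripheral tissues of rats and mice, transcripts of Bmal1, Clock and Npas2 are highest around the start of the light phase, and those of the E-box genes from the middle of the light phase to its end or shortly after. The 3 first are called the morning arm here, and the other 7 the evening arm. In mice, the bladder has a clock of its own that has been linked to the daily rhythm of urine storage.

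RefSeq promoter windows of the GRCr8 assembly, from 250 bases before to 50 bases after each annotated start site, were found for 10 of the 10 genes, in 12 windows. They were searched on both strands for the sites through which the loop is closed. The E-box was searched as CACGTG, the related E'-box as CACGTT, the D-box, which DBP and TEF bind, as TTATGTAA or TTATGCAA, and the RORE as TAGGTCA or TGGGTCA. None of these words contains another. In all 33469 windows of the table, the E-box was present in 6.42%, the E'-box in 4.83%, the D-box in 1.73% and the RORE in 6.60%. Of the clock genes, 4 had at least 1 match, namely Nr1d1, Per2, Tef and Bmal1. The shares above are per window and per word, and no share of all genes with any match was taken. Whether 4 of 10 genes is more than usual was therefore not tested. Positions of matches count from the start site, and the capitals mark the matched letters. The windows of Nr1d1, Per2 and Bmal1 are shown whole because they hold an E-box, a D-box with an E'-box, and a RORE, so that each kind of site in the loop is seen once.
Nr1d1, E-box, second annotated start (chr10:84229405-84229704, minus strand): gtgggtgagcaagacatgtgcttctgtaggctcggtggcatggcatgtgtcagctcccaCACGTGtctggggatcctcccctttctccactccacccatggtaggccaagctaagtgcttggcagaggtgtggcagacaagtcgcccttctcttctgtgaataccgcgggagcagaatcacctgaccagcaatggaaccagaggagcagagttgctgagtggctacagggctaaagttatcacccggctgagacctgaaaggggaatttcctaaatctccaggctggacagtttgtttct
Per2, D-box and E'-box (chr9:99496944-99497243, minus strand): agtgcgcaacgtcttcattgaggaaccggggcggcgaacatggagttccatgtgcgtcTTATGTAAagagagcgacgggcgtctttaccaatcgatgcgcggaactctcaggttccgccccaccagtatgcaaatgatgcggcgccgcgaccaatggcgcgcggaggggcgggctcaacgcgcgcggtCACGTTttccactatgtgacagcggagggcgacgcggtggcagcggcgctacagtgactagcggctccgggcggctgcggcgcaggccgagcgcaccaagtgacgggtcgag
Bmal1, RORE (chr1:176766078-176766377, plus strand): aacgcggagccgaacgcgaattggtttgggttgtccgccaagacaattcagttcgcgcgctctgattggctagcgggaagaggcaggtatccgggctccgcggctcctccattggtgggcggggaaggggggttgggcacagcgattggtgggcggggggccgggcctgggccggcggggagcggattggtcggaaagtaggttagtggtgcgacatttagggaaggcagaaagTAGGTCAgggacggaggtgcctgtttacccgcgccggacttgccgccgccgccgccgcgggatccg
The E-box of Nr1d1 began at position -191, the D-box of Per2 at -192 and its E'-box at -62, and the RORE of Bmal1 at -16. The stretch of Tef around its E-box at -198, and that of the other start of Nr1d1 around an E'-box at -174, are shown with 40 bases on each side. The match in Nr1d1 reads as the reverse strand of the searched word.
Tef, E-box (chr7:115206589-115206674, plus strand): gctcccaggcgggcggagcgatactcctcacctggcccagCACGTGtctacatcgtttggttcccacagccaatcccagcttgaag
Nr1d1, E'-box, first annotated start (chr10:84231941-84232026, minus strand): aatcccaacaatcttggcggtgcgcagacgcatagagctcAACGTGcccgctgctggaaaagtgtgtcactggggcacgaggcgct
A match is a run of letters and not a measured binding site. Only the exact words above were searched, so a window may hold variants of these sites that are not marked. The windows of Nr1d2, Per1, Per3, Dbp, Clock and Npas2 held none of these words.

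In the DMA pool, Nr1d1, Per1 and Dbp stood farthest below the control pool, and the remaining clock genes differed by less. Nr1d1 was 1.79-fold lower, Per1 1.48-fold lower and Dbp 1.47-fold lower, followed by Bmal1 (1.34-fold lower), Npas2 (1.23-fold lower) and Per2 (1.15-fold lower). Nr1d2, Per3, Tef and Clock differed by at most 1.06-fold. With 1 array per group there is no replicate error, so no p-value or confidence interval can be given for any of these differences, and each describes 2 pools. Because the tissue holds several cell types, fewer cells of a type and less RNA per cell cannot be told apart in these values.

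The signals are RMA intensities on a linear scale, and all 10 genes reached the signal minimum of 100 in both pools. Nr1d1 encodes a nuclear receptor that represses Bmal1 and binds haem (cluster TC1000003722.rn.1). Its signal was 323 in the DMA pool and 579 in the control pool, a log2 ratio of -0.84, the lowest of the 10. Of all 11718 genes that reached the minimum in at least 1 pool, 2.44% had a lower ratio. Set against the 500 genes nearest in signal, the ratio of Nr1d1 lay at a Z score of -2.19, which says where a gene stands among other genes and nothing about the spread between rats. Its paralogue Nr1d2, a repressor that acts on the same sites (cluster TC1500000090.rn.1), gave 4085 in the DMA pool and 4003 in the control pool, a log2 ratio of 0.03. Nr1d1 and Nr1d2 stood farther apart in log2 ratio than Clock and Npas2, Dbp and Tef, or any pair of period genes did.

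**Figure D1:**
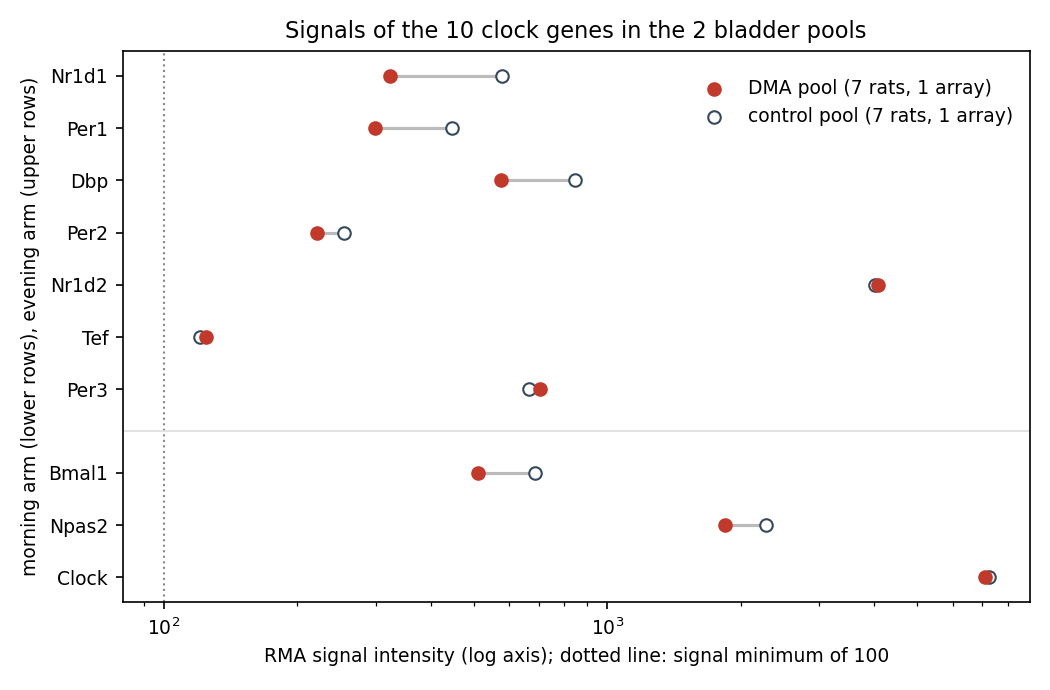
RMA signal intensity of the 10 clock genes on a log axis, with filled points for the DMA pool and open points for the control pool (1 array each, 7 rats per pool). In the deposited values the DMA point lies left of the control point for 7 genes, with the widest gap for Nr1d1 (323 in the DMA pool and 579 in the control pool), and nearly on it for Clock, whose direction turned with a loess curve removed, and for Nr1d2.

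The period genes encode the proteins that inhibit CLOCK and BMAL1. Per1, the period gene that also answers quickly to glucocorticoids and to cAMP, had a signal of 300 in the DMA pool and 445 in the control pool (log2 ratio -0.57; cluster TC1000000908.rn.1). Per2 had a signal of 221 in the DMA pool and 255 in the control pool (-0.20). Per3, which is dispensable for the core loop in mice, had a signal of 704 in the DMA pool and 665 in the control pool (0.08). From the lowest upward the order of their log2 ratios was Per1, Per2, Per3. Per3 stood above 0 in the deposited values and at -0.02 with each array centred on its median, so whether the 3 genes shared a direction is not settled.

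Dbp and Tef encode output factors of the PAR bZIP family, which carry the rhythm from the loop to genes with a D-box. Dbp, whose transcript swings widely over the day in rat liver, had a signal of 575 in the DMA pool and 845 in the control pool (log2 ratio -0.55; cluster TC0100001509.rn.1). Tef, whose transcript swings less, had a signal of 124 in the DMA pool and 121 in the control pool (0.04), close to the signal minimum. At such low signals RMA narrows ratios, so the value for Tef may understate a difference.

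In the morning arm, Bmal1, the partner without which the loop stops, had a signal of 511 in the DMA pool and 686 in the control pool (log2 ratio -0.43; cluster TC0100002398.rn.1). Npas2, which can stand in for CLOCK, had a signal of 1846 in the DMA pool and 2278 in the control pool (-0.30). Clock itself had a signal of 7101 in the DMA pool and 7233 in the control pool (-0.03). Of all measured genes, 9.49% had a lower ratio than Bmal1 and 14.9% a lower ratio than Npas2, against 52.9% for Clock.

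**Figure D2:**
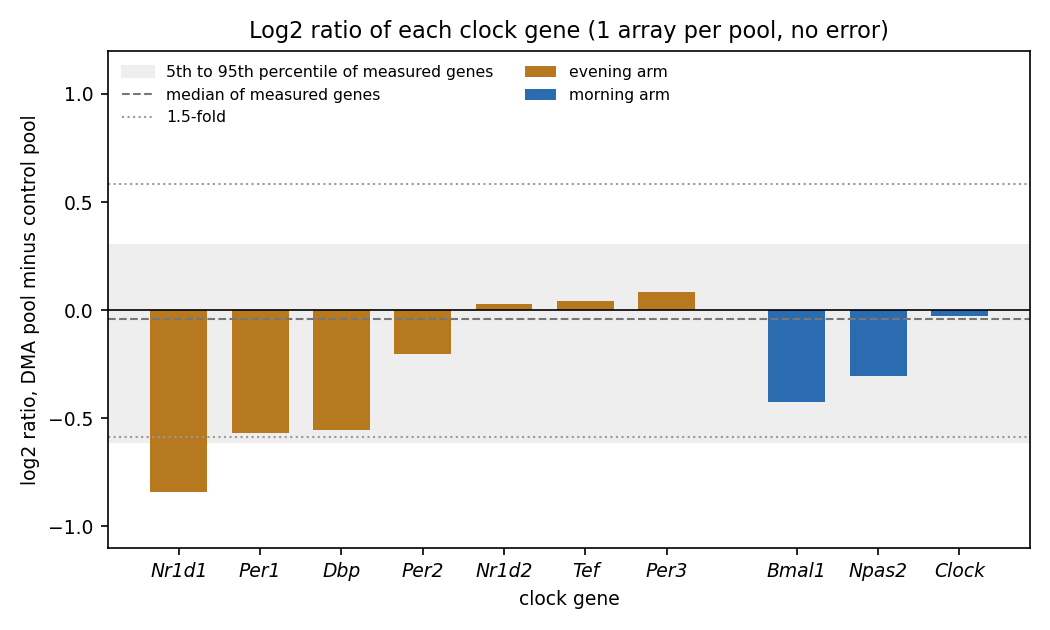
Log2 ratio (DMA pool minus control pool) of each clock gene, by arm, with the grey band from the 5th to the 95th percentile of all measured genes (-0.61 to 0.30), their median as a dashed line and 1.5-fold as dotted lines. Only Nr1d1 among the 10 genes lies below the band, and both arms hold genes below 0 and genes near 0.

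Set side by side, the medians of both arms lay below 0, so the arms did not differ in the sign of their medians. The evening arm had a median log2 ratio of -0.20 (range -0.84 to 0.08), with 4 genes below 0 and 3 above. The morning arm had a median of -0.30 (range -0.43 to -0.03), with all 3 genes below 0. The difference of the medians, evening minus morning, was 0.10, small beside the range of 0.93 within the evening arm and of 0.40 within the morning arm. The median over all 10 genes was -0.25, beside -0.04 over all measured genes. A log2 ratio below 0 was found for 7 of the 10 clock genes, and for 58.9% of all measured genes. When each array was instead centred on its median over all clusters, every log2 ratio was 0.099 lower and the median of all measured genes stood at -0.14. Nr1d2, Per3 and Tef were then also below 0 (-0.07, -0.02 and -0.06), and Clock stood at 0.02 when a loess curve was removed, so the directions of these 4 genes are not settled.

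The study called a gene higher when ratio and Z score both reached 2, and lower when the ratio was no more than 0.5 and the Z score no more than -2. The study's methods do not say against which genes its Z score was taken. Here it was taken among the 500 genes nearest in signal, and the signal minimum was asked of at least 1 pool. By these limits 0 of the 10 clock genes were called. Over all measured genes 210 were called, or 1.79%. Nr1d1 passed the limit on Z and not the limit on the ratio. At a lower limit of 1.5-fold, Nr1d1 alone of the 10 was lower in the DMA pool, against 5.48% of all measured genes, and 0 were higher, against 1.30%. Per1 and Dbp lay just inside that limit, and with each array centred on its median they passed it too, which gave 3 of 10 clock genes against 7.74% of all measured genes. Each share rests on 10 genes.

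**Figure D3:**
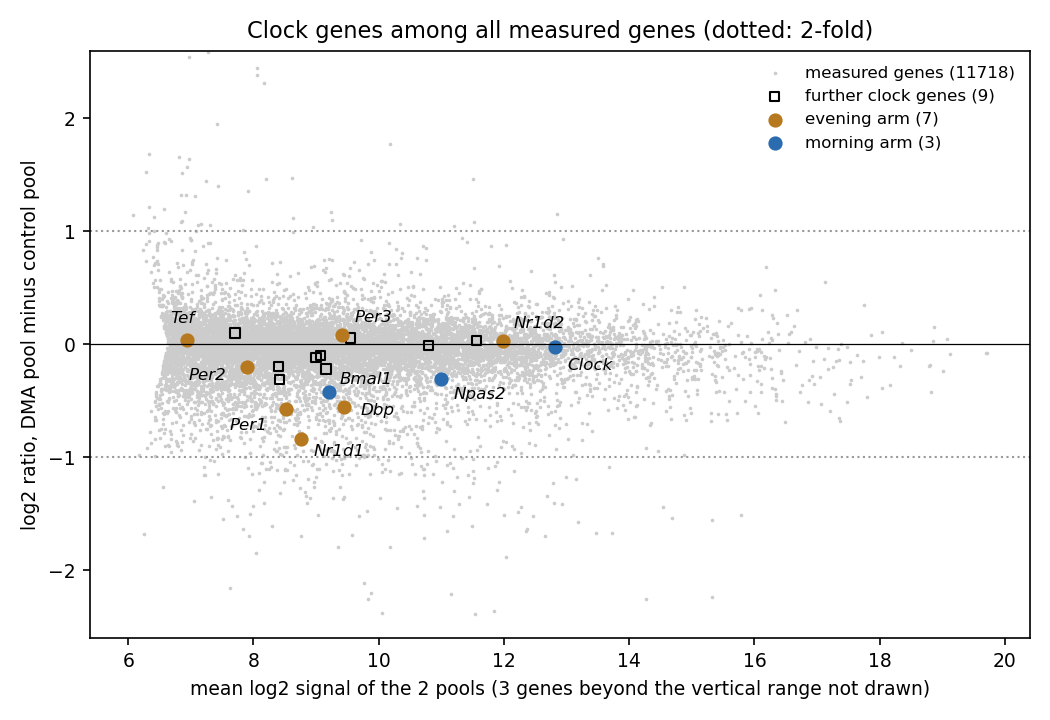
Log2 ratio (DMA pool minus control pool) against mean log2 signal for the 11718 measured genes in grey, with the evening arm, the morning arm and 9 further clock genes marked and 2-fold as dotted lines. The clock genes all lie within 2-fold, Nr1d1 nearest to the lower line, while 3 genes beyond the vertical range are not drawn.

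The locus of Nr1d1 overlaps that of Thra, the gene of thyroid hormone receptor alpha, which is read from the opposite strand. The 2 genes share 1061 bases in the RefSeq annotation of GRCr8. Thra had a signal of 265 in the DMA pool and 399 in the control pool, a log2 ratio of -0.59, so that both transcripts of the locus were lower in the DMA pool. Whether the probes of the 2 clusters lie in the shared stretch was not tested. Overlapping non-coding genes, for which no values were taken here, are also annotated on the opposite strand at Per2, Clock and Npas2.

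The log2 ratios of the measured further clock genes lay between -0.31 and 0.10, taking the brightest cluster of each. Of 15 such genes with a cluster, 9 were measured, of which 0 were called and 0 passed 1.5-fold. Their median log2 ratio was -0.10, with 6 genes below 0 and 3 above in the deposited values, beside 58.9% of all measured genes below 0. Among the inhibitors, Cry1, a cryptochrome, had a signal of 216 in the DMA pool and 202 in the control pool (log2 ratio 0.10), and a second, dimmer cluster of Cry1 had a log2 ratio of 0.24. Cry2, the other cryptochrome, had a signal of 529 in the DMA pool and 616 in the control pool (-0.22). Bhlhe40, a repressor at E-boxes that is itself an E-box gene, had the lowest log2 ratio of the measured genes of this list, with 307 in the DMA pool and 380 in the control pool (-0.31). Its relative Bhlhe41 gave 764 in the DMA pool and 734 in the control pool (0.06).

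Rora, an activator at the sites where NR1D1 represses, had a signal of 1767 in the DMA pool and 1780 in the control pool (log2 ratio -0.01). The kinase genes Csnk1d and Csnk1e, whose products mark period proteins for removal, had log2 ratios of 0.04 and -0.10. Btrc, which encodes part of the ubiquitin ligase that removes them, was at -0.20, and Tipin, a partner of the TIMELESS protein at replication forks, at -0.12. Ciart, Hlf, Nfil3, Rorb, Bmal2 and Timeless were below the signal minimum in both pools.

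Of 6 clock-controlled outputs, 5 were measured, with a median log2 ratio of -0.10 and 0 called. Of these 5, 4 were below 0, beside 58.9% of all measured genes. The mitotic kinase gene Wee1 had a signal of 961 in the DMA pool and 889 in the control pool (log2 ratio 0.11). Nampt, the enzyme that salvages nicotinamide for NAD, had 1174 in the DMA pool and 1351 in the control pool (-0.20). Alas1, Por and Cirbp, which act in haem synthesis, in electron transfer to cytochromes P450 and in the response to cold, had log2 ratios of -0.03, -0.10 and -0.11, and Usp2 was below the signal minimum.

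Of 5 genes whose transcripts are described as rhythmic in the mouse bladder, all were measured, 0 were called, and the median log2 ratio was 0.03 (-0.07 with each array centred on its median). Trpv4, a cation channel of the urothelium that responds to stretch, was 1.55-fold lower, with a signal of 747 in the DMA pool and 1161 in the control pool (log2 ratio -0.64). Slc17a9, which loads vesicles with ATP, had 117 in the DMA pool and 150 in the control pool (-0.36). Gja1, which encodes the gap junction protein connexin 43 and in mouse bladder muscle is controlled with the help of NR1D1, had 340 in the DMA pool and 282 in the control pool (0.27). The mechanosensitive channel gene Piezo1 and the connexin gene Gjb2 had log2 ratios of 0.11 and 0.03. In the deposited values Trpv4 and Slc17a9 lay below 0 and the other 3 genes above it, but Gjb2 stood at -0.07 with each array centred on its median.

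Genes that answer to acute signals, as Per1 does, were read in 2 groups beside the clock. Of 13 immediate early genes with a cluster, Egr3 and Atf3 were below the signal minimum in both pools and had log2 ratios above 0. The 11 measured genes all had a log2 ratio below 0 in the deposited values, beside 58.9% of all measured genes. The highest of the 11, at -0.004, lay above the median of all measured genes (-0.04). The median of the 11 was -0.15. Against 1.79% of all measured genes, 1 of the 11 was called. This was Dusp1, a phosphatase that switches off MAP kinases, which was 2.16-fold lower in the DMA pool (747 in the DMA pool and 1612 in the control pool). Jun and Klf4, transcription factors of the early response, both had a log2 ratio of -0.72. Of 10 glucocorticoid-responsive genes, 7 were below 0, with a median of -0.29. Pdk4, a kinase that restrains pyruvate oxidation, was called higher (log2 ratio 1.78) and Dusp1, which stands in both groups, was called lower, while Klf9 was at -0.55. The part of either group in the values of Per1 was not tested.

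Markers of other cell types differed between the pools as well, and their part in the clock values was not tested. All 9 fibroblast and matrix markers were lower in the DMA pool by at least 1.5-fold, 7 of them were called, and their summed signal was 215531 in the DMA pool and 444584 in the control pool. The lowest log2 ratios were those of the matrix genes Ogn, Mfap5 and Col1a2 (-1.67, -1.61 and -1.56). All 9 smooth muscle markers were below 0, with 0 called and a summed signal of 570520 in the DMA pool and 739420 in the control pool. Their median was -0.47 (-0.31 with a loess curve removed and -0.35 with the mean over clusters). The lowest were Smtn, Lmod1 and Cnn1 (-0.86, -0.64 and -0.50). Of 10 measured urothelial markers, 7 were above 0, with a median of 0.03 (-0.06 with each array centred on its median and 0.22 with a loess curve removed) and a summed signal of 1765466 in the DMA pool and 1666273 in the control pool. Krt20 was called lower (-1.23), and Krt18 and Krt8 stood at 0.68 and 0.31.

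The signals of the 10 urothelial markers ran from 1407 to 561252 in the DMA pool and from 1480 to 544597 in the control pool, and no marker of the male accessory glands reached the signal minimum. The 4 endothelial markers and the 4 macrophage markers were all below 0, with medians of -0.41 and -0.68. Kdr, Eng and Pecam1 were at -0.77, -0.49 and -0.33, and Csf1r, Mrc1 and Cd68 at -0.88, -0.78 and -0.58. Among nerve and glia markers 3 were measured, and the neuronal genes Stmn2 and Ncam1 were called lower (-2.21 and -1.05), while Uchl1 was at -0.01. Both measured red cell markers, Hba-a1 and Hbb, were called lower (-2.24 and -1.16). Hbb reached the signal minimum in the control pool only (99.6 in the DMA pool and 223 in the control pool). Where both signals had to reach 100, 1 red cell marker was called. Of 3 skeletal muscle markers 0 were called, with Tnnt3, Ckm and Acta1 at -0.19, 0.10 and 0.07. Of 7 measured mitosis genes, 4 were called higher, with a median of 1.40, led by Mki67, Top2a and Cenpf (2.39, 1.95 and 1.68). Several mitosis genes, Top2a and Cenpf among them, reached the signal minimum in the DMA pool only. The median was 0.94 with no minimum and 0.81 with lower signals raised to 100, where 3 genes were called, and 1.90 where both signals had to reach 100, where 2 were called. In the deposited values, the log2 ratios of Nr1d1, Per1 and Dbp lay above the median of the fibroblast list (-1.44) and below that of the smooth muscle list.

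**Figure D4:**
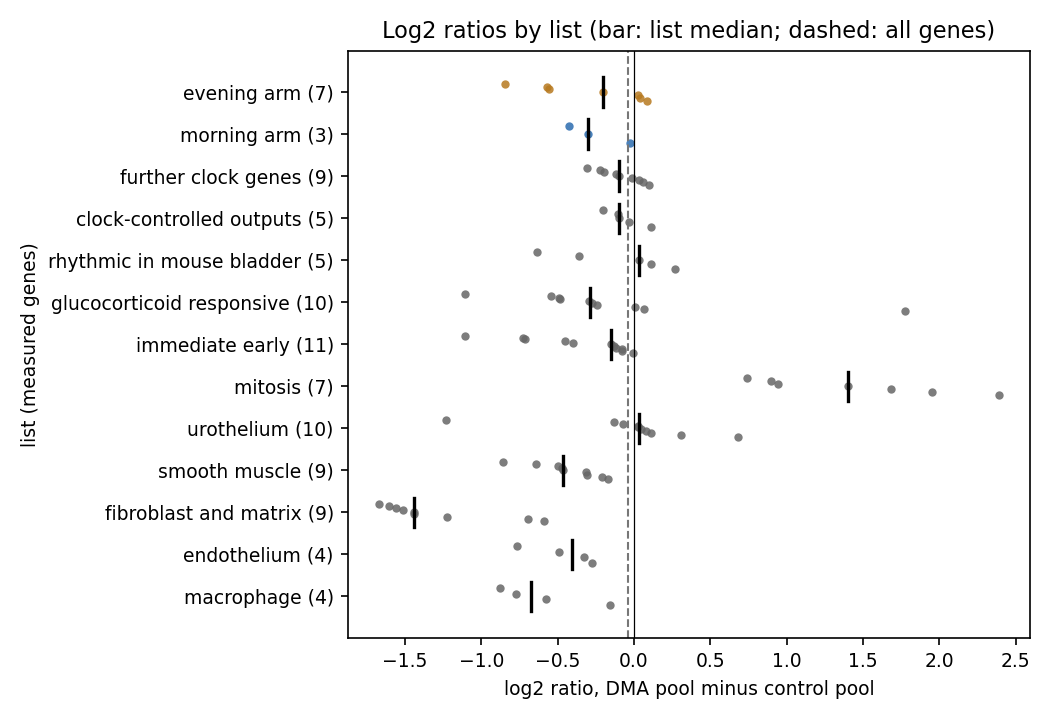
Log2 ratios (DMA pool minus control pool) of the measured genes of each list, with a bar at the list median and a dashed line at the median of all measured genes. The lists of nerve and glia, red cell and skeletal muscle markers are not drawn. The fibroblast and matrix list has a median of -1.44 and the mitosis list one of 1.40. Between them lie the evening arm, the morning arm and the further clock genes, with medians of -0.20, -0.30 and -0.10. Each of these clock lists holds more genes below 0 than above in the deposited values, as does the set of all measured genes (58.9% below 0).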

How the data were processed

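Total RNA was extracted with TRIzol, labelled with a GeneChip WT PLUS kit and put on 1 array per pool. The authors deposited signal intensities on a linear scale, 1 per transcript cluster and array, made with RMA in Affymetrix Expression Console 1.4.1. RMA brings the distributions of arrays close to each other, so a shift common to most transcripts may not be seen in them. The median signal over all clusters was still 53.2 in the DMA pool and 49.7 in the control pool. The genome build behind the clusters was not given in the sources used here. The array named in the study's methods differs from that of the file. The log2 of every value was within rounding of a number with 6 decimals, so values were taken back to log2 without an offset. The number of arrays limits the precision of every value.

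Of 68842 clusters, 23446 were paired with a single gene symbol by the platform annotation, 505 with several and 44891 with none. Symbols were updated through gene identifiers for 22077 clusters, and Tef kept its annotated symbol. The brightest cluster stood for a gene. A gene counted as measured when its higher signal was at least 100. The log2 ratio was DMA minus control, and the Z score was taken among the 500 genes nearest in mean log2 signal. No test was run, and the steps were tested on simulated data. Python 3.11.15, pandas 2.3.3 and statsmodels 0.14.6 were used.

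The genes, arms and lists were chosen with earlier results of these data known. Named genes were the 10 clock genes, every measured gene of the further clock list, the outputs and the genes rhythmic in mouse bladder, and from each other list up to 3 measured genes farthest from 0 in log2 ratio. Thra, Egr3 and Atf3 were named after their values were seen. Alternatives changed the scale of the arrays, the cluster that stands for a gene, the signal minimum, the Z score and the call rule.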

Additional observations from a re-analysis of the deposited data

How the results depend on the processing

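There were 6 alternatives for the scale, the cluster used and the signal minimum. Each of the 10 clock genes has 1 cluster and reached 100 in both pools. A change of cluster or signal minimum therefore could not move their log2 ratios, and only centring and the loess curve could. Under these, 6 of the 10 clock genes (Nr1d1, Per1, Per2, Dbp, Bmal1 and Npas2) kept a log2 ratio below 0. The other 4 each changed sign under 1 of them. With each array centred on its median, the log2 ratios of Nr1d2, Per3 and Tef were -0.07, -0.02 and -0.06, and with a loess curve removed that of Clock was 0.02. The log2 ratio of Nr1d1 ran from -0.94 to -0.81. The number of clock genes past 1.5-fold was 3 with each array centred on its median, since that step lowers every log2 ratio by the same amount, and 1 otherwise. The medians of the arms and their difference moved by less than 0.1 on the log2 scale, and 0 clock genes passed the thresholds of the study under all 8 alternatives. No clock gene reached 2-fold in the deposited values, so the changes of cluster, signal minimum, Z score and call rule could not have given a call. All alternatives were planned. No paired analysis was possible because each group has 1 array. The limit on precision is the absence of replicate arrays, and for Tef also its low signal.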
